A study of Rattus norvegicus with 15 samples.

Results

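The bone morphogenetic protein (BMP) and transforming growth factor beta (TGF-beta) genes of rat lung were followed across control, injured and treated lungs. They were chosen by name: ligands of the Bmp, Gdf, Inhb and Tgfb series, Acvr, Bmpr and Tgfbr receptors, Smad genes, latent TGF-beta binding proteins (Ltbp) and the inhibitor of DNA binding genes Id1 to Id4. Of the 22250 genes that were deposited, 61 matched, and 43 of these reached the level required for testing, an FPKM of 1 in 5 or more of the 15 libraries. FPKM is the number of fragments on a gene scaled for its length and for the mapped fragments of the library. All rats were wild type. The control group is described as normal rats, the ALI group (acute lung injury) received lipopolysaccharide (LPS, a bacterial cell wall component) through the trachea, and the SJY group received tracheal LPS together with intragastric Sang Ju Yin, a Chinese herbal medicine. Each group had 5 libraries. The labels state no strain, sex, age, dose, time after LPS or pooling of animals, and no group given instillation or vehicle alone is named. They do not say whether libraries are separate animals, so the p-values measure the spread between these libraries.

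Ligands of this family are secreted as dimers and bind a pair of type I and type II receptor kinases, which phosphorylate Smad proteins. TGF-beta and activin receptors act mainly on Smad2 and Smad3, BMP receptors mainly on Smad1 and Smad5. Both sets bind Smad4 and enter the nucleus, and Smad6 and Smad7 oppose the signal. TGF-beta is secreted in a latent form held in the matrix by Ltbp proteins. In lung, TGF-beta is known for its part in fibrosis and barrier leak, and BMP signalling through BMPR2 for its part in the pulmonary vessels.

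In ALI, 12 of the 43 tested genes fell and 2 rose against control, among all genes tested 9.56% and 8.02%. In SJY, 14 fell and 1 rose against control, among all genes tested 18.1% and 14.6%. In ALI 3 of the 11 tested receptor genes and 4 of the 12 tested ligand genes fell. Among the called genes of the 43, the deepest falls in ALI were those of Ltbp4, Bmp1, Bmp4 and Bmp3. Tgfb1 and the TGF-beta induced matrix gene Tgfbi rose. Between SJY and ALI 0 of the 43 genes passed the test.

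Sequences before a listed gene start are shown for 3 genes that fell in both comparisons with control and whose sequence was at hand. They are the activin subunit gene Inhbb, the TGF-beta co-receptor gene Tgfbr3 and the type I BMP receptor gene Bmpr1a. They were picked after the values had been seen. Each is the 250 bases before a start listed for the gene in RefSeq (build GRCr8), from 5′ to 3′ on the strand of the gene. Capitals mark GGCGCC, a GC-rich element known from BMP-responsive genes. A listed start can lie inside the span of the gene, so these stretches, that of Bmpr1a included, may not be promoters in use. The regions are chr13:33089374-33089623 on the minus strand for Inhbb, chr14:2634044-2634293 on the plus strand for Tgfbr3 and chr16:9786862-9787111 on the minus strand for Bmpr1a.
Inhbb: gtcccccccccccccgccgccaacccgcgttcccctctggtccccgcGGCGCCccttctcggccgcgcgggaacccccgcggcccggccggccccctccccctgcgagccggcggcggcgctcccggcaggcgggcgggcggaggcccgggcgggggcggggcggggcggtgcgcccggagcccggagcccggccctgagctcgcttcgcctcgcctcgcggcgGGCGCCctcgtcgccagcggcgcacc
Tgfbr3: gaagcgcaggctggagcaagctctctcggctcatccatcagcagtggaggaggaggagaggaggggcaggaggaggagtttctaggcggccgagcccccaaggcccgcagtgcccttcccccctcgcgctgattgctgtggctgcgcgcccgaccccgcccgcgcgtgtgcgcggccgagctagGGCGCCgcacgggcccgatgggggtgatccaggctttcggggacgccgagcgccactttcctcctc
Bmpr1a: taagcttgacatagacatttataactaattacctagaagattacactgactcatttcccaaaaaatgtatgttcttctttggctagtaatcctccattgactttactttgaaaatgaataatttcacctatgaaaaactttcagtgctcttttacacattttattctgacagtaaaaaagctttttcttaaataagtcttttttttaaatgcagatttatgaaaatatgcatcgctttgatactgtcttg
Inhbb holds GGCGCC at 203 and at 26 bases before its start, Tgfbr3 holds it at 66 bases before, and the Bmpr1a stretch has neither this motif nor the Smad box. The search covered 250 bases before to 50 bases after the start, a window of 300 bases whose GC content was 84.3% for Inhbb, 69.7% for Tgfbr3 and 30% for Bmpr1a. RefSeq promoters were found by symbol for 51 of the 61 genes, 38 of them tested. GGCGCC, its own reverse complement, was in 31.6% of these 38 windows and in 11% of the 33469 windows of the table. The Smad box, CAGAC on either strand (GTCTG on the other), was in 18.4% of the 38 and in 50.1% of all. For the 38 genes only the first listed window was counted, while the 33469 hold every distinct listed start. Neither this nor the base composition of the windows was matched, and a match of letters does not show a bound site.

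The libraries differed in ways that touch these genes. The mitochondrial share of the summed FPKM was 37.7% in ALI 1 and 17.1% in SJY 1, against 5.19% to 14.1% in the other 13 libraries. ALI 1 was the lowest ALI library for 36 of the 43 genes (83.7%), and for 61.4% of all genes tested. The number of reads is unknown, so no counting error is given, and the size of the smallest steps between low values put the relative depth of the libraries between 0.929 and 1.09. The method looked only at small ratios between libraries, so it could not have found a large difference in depth. The 8 surfactant and other alveolar type II markers, the defining genes of lung, summed to 16050 to 24550 FPKM in control. They summed to 6000 to 20630 in ALI and 17560 to 20050 in SJY, ranges that overlapped. Against control 2 of these 8 fell in ALI and 3 in SJY. Some marker sums of other cells did not overlap between control and ALI. The 8 alveolar type I markers summed to 2949 to 4068 FPKM in control, 668 to 2058 in ALI and 1588 to 2475 in SJY, and the 11 neutrophil markers to 78.8 to 132, 1332 to 15900 and 6956 to 11910 FPKM. The 14 endothelial markers matched in the table summed to 949 to 1384, 628 to 1258 and 962 to 1350 FPKM, ranges that overlapped, and 1 of them was at 0 in all libraries. Against control, of the 12 endothelial markers tested 1 rose and 1 fell in ALI, and 2 rose and 3 fell in SJY. The 6 airway club and ciliated markers summed to 11330 to 17560 FPKM in control, 5624 to 9008 in ALI and 8207 to 13930 in SJY. The 10 monocyte and macrophage markers summed to 12620 to 18580, 4794 to 18470 and 11510 to 16210 FPKM, ranges that overlapped, while 6 of the 10 rose in ALI and 5 in SJY against control. Of the 8 type I markers 8 fell in ALI and 6 in SJY, and of 10 tested neutrophil markers 8 rose in each. Of 5 tested airway markers 2 fell in ALI and 0 were called in SJY. All genes tested gave 8.02% higher and 9.56% lower in ALI, and 14.6% higher and 18.1% lower in SJY. The part of these cells in the results below was not tested, and in bulk RNA fewer cells of a type and less RNA per cell cannot be told apart.

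Some ligands of the BMP and activin branches were lower in ALI. Of 12 tested ligand genes 4 fell (Bmp3, Bmp4, Bmp15 and Inhbb) and 1 rose (Tgfb1), while 9.56% of all genes fell and 8.02% rose. Bmp4, a ligand of developing airways and of vessels, had 79.5, 99.0, 68.2, 65.9 and 61.7 FPKM in control libraries 4 to 8, 11.9, 38.3, 47.7, 40.2 and 52.2 in ALI libraries 1 to 5, and 66.3, 57.2, 43.2, 58.4 and 34.5 in SJY libraries 1, 3, 4, 5 and 6. Values of other genes follow the same order of libraries. Every ALI library lay below every control library, and SJY overlapped with both. The log2 fold change in ALI was −1.09 ± 0.31 (SE; limma adjusted p = 0.026). Here and throughout fold changes are on the log2(FPKM + 1) scale, which understates the change of genes at a low level. Without ALI 1, the library with the lowest Bmp4, it was −0.72 (adjusted p = 0.0128), and without control 5 the call was lost (adjusted p = 0.0684). The call was also lost when only ALI and control were fitted. SJY was 0.55 ± 0.31 above ALI (adjusted p = 0.513) and −0.54 from control (adjusted p = 0.199), neither called.

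Bmp3, a BMP that can oppose other BMPs, was low in both LPS groups. Its libraries held 4.68, 8.05, 10.8, 11.5 and 16.7 FPKM in control, 2.02, 3.07, 4.05, 5.51 and 6.82 in ALI, with 3.50, 3.36, 6.26, 4.54 and 4.09 in SJY. Control 4 lay inside the range of both other groups. The fall was −1.08 ± 0.29 log2 units in ALI (adjusted p = 0.0201) and −1.01 ± 0.29 in SJY (adjusted p = 0.0162). In ALI the call was lost without control 7 or control 8 (adjusted p from 0.0521 to 0.0564), and when only ALI and control were fitted.

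Inhbb encodes the beta B subunit of activins and inhibins. Its values were 21.7, 24.9, 27.2, 23.1 and 25.2 FPKM in control, 17.2, 18.8, 13.7, 19.7 and 15.99 in ALI, with 14.1, 12.3, 14.5, 17.4 and 16.4 in SJY. All 10 libraries of LPS-treated rats lay below all 5 controls. It changed by −0.50 ± 0.12 log2 units in ALI (adjusted p = 0.0116) and −0.68 ± 0.12 in SJY (adjusted p = 0.000867). Under median-of-ratios scaling, which brought the median change of all genes from −0.12 to zero, the ALI call was lost (−0.36, adjusted p = 0.0863). Inhba, which encodes the beta A subunit, was too low to be tested, at 0 to 0.154 FPKM in control, 0.227 to 1.08 in ALI and 0.0859 to 0.407 in SJY.

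Bmp15, known mainly from the oocyte, was near the lower limit of testing. It stood at 1.51, 2.64, 1.39, 1.85 and 2.14 FPKM in control, 0.0739, 0.405, 1.08, 1.02 and 0.959 in ALI, with 1.91, 1.19, 0.467, 1.32 and 0.492 in SJY. ALI did not overlap with control (log2 fold change −0.80 ± 0.23, adjusted p = 0.027), while SJY did (−0.52, adjusted p = 0.0939). The ALI call was lost without control 5, 7 or 8, ALI 1 or ALI 2 (adjusted p from 0.0532 to 0.0705), and SJY was called without SJY 1 (adjusted p = 0.0464).

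The TGF-beta ligands did not move as one. Tgfb1, the main TGF-beta of immune and matrix responses, had 49.8, 59.0, 58.5, 56.5 and 50.1 FPKM in control, 61.9, 66.6, 70.4, 64.2 and 74.7 in ALI, with 58.0, 71.3, 67.5, 66.6 and 59.4 in SJY. Every ALI library was above every control. The rise in ALI was 0.30 ± 0.09 log2 units (adjusted p = 0.0403), and the SJY difference of 0.23 had an adjusted p of 0.0704. The ALI call was lost without any 1 of control 4, 6, 7 and 8 and ALI 2, 3 and 5 (adjusted p from 0.0555 to 0.0961), and when FPKM were rescaled without mitochondrial genes (0.25, adjusted p = 0.0908). A fit of ALI and control alone did not call Tgfb1 either. Tgfb2 fell in SJY from 15.1 ± 1.83 FPKM in control to 10.8 ± 0.430 (SD, n = 5 each; −0.43 ± 0.14, adjusted p = 0.0258), with 12.3 ± 2.63 FPKM in ALI (−0.29, adjusted p = 0.148). Its SJY libraries (10.98, 10.1, 11.1, 10.8 and 11.2 FPKM) were all below the controls (16.5, 13.2, 16.9, 13.02 and 15.7 FPKM). That call was lost without control 6, control 8 or SJY 3 (adjusted p from 0.0576 to 0.0679). SJY and ALI did not differ by the test for Tgfb2 (−0.14, adjusted p = 0.733). Tgfb3 had means of 6.93, 6.83 and 5.46 FPKM in control, ALI and SJY, with no call.

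The other tested ligands had no call. Bmp6, in control the ligand gene with the highest mean level after Bmp4, had 65.4 ± 11.7 FPKM in control, 46.5 ± 23.9 in ALI, with 53.4 ± 2.24 in SJY (SD, n = 5 in each group; ALI against control −0.66, adjusted p = 0.138). Bmp2 was at 1.64 ± 0.476, 1.89 ± 1.15 and 3.11 ± 1.65 FPKM in the same order, with SJY 6 alone at 6.06. Gdf15, a stress-induced cytokine, had 16.5 ± 7.04, 16.1 ± 2.08 and 20.6 ± 1.77 FPKM, and was called higher in SJY than in control without control 4, at 28.0 FPKM (adjusted p = 0.00849), and with array weights (adjusted p = 0.00659), which weigh down deviating libraries. Bmp5 ranged from 1.90 to 4.23 FPKM and Gdf11 from 0.537 to 1.39 FPKM over all libraries.

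**Figure D1:**
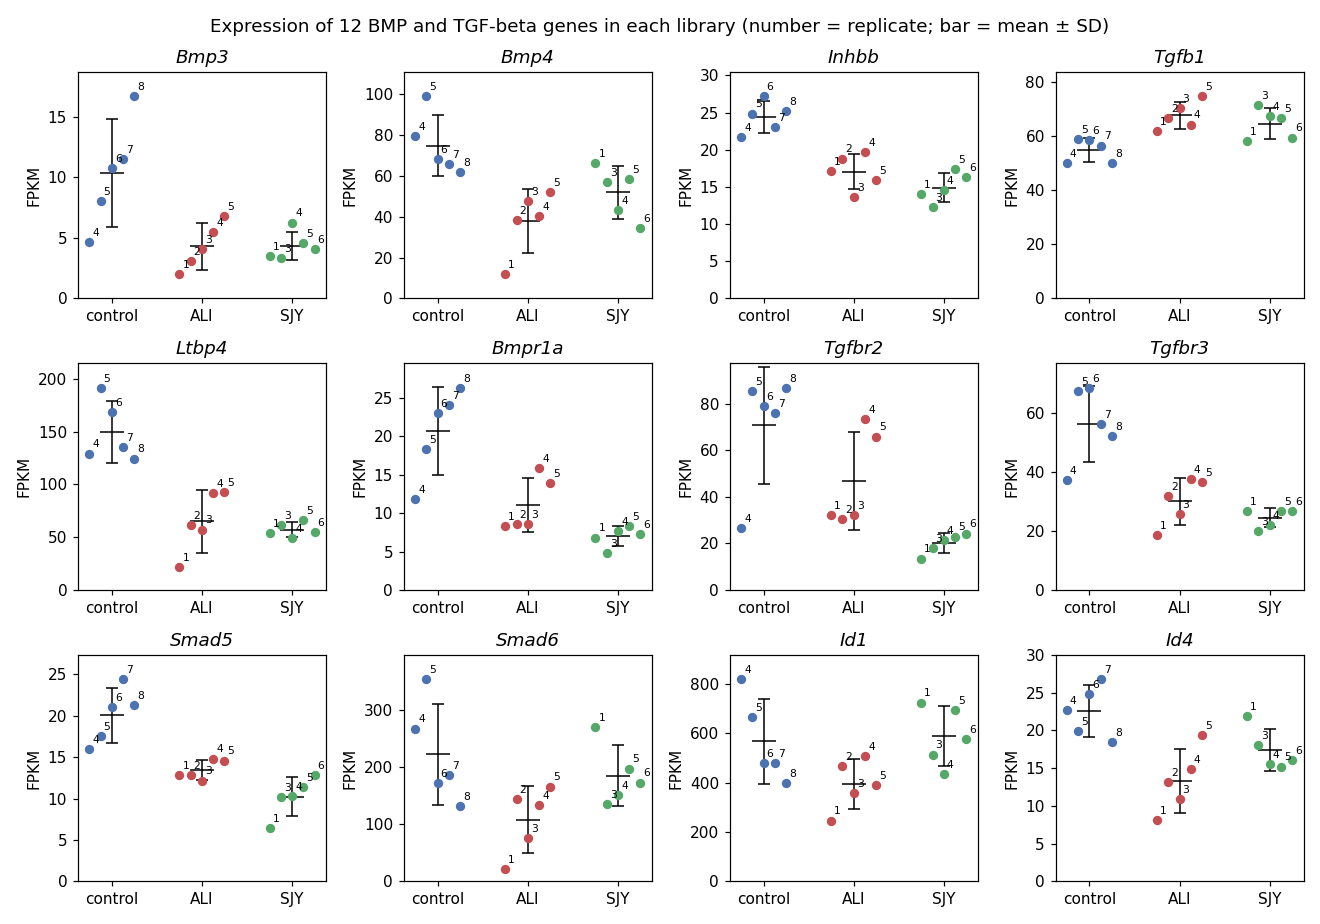
FPKM of 12 genes in each of the 15 libraries (vertical axis FPKM, starting at 0; horizontal axis group; points are libraries numbered by replicate, bars the mean ± SD of 5). For Ltbp4, Inhbb and Bmp4 all ALI points lie below all control points, for Tgfbr2 the SJY points lie below those of both other groups, and ALI 1 is the lowest ALI point in most panels.

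Of the 4 latent TGF-beta binding proteins, 1 was called in each comparison with control, beside 17.6% (ALI) and 32.6% (SJY) of all genes. Ltbp4, which holds latent TGF-beta in the matrix and is needed for elastic fibres in lung, had the deepest fall of all 43 genes in ALI. It stood at 129, 192, 168, 135 and 124 FPKM in control, 21.3, 61.1, 57.2, 92.1 and 92.7 in ALI, with 53.8, 61.7, 48.8, 66.6 and 54.6 in SJY. Neither LPS group overlapped with control. The log2 fold change was −1.34 ± 0.30 in ALI (adjusted p = 0.00693) and −1.36 ± 0.30 in SJY (adjusted p = 0.00329). Without ALI 1 it was −0.99 in ALI (adjusted p = 0.000932). Ltbp3 was at 20.7 ± 3.69, 13.1 ± 5.83 and 12.2 ± 2.45 FPKM in control, ALI and SJY (SD, n = 5 each), with all SJY libraries below all controls, but neither comparison with control passed (adjusted p = 0.105 and 0.103). Ltbp2 (adjusted p = 0.293 and 0.244) and Ltbp1, at 14.8, 15.95 and 15.4 FPKM, were not called either.

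All 11 tested receptor genes had a negative estimate in both comparisons with control, and 3 fell in ALI (Bmpr1a, Bmpr2 and Tgfbr3) and 5 in SJY (those and Acvr2b and Tgfbr2), again beside falls of 9.56% and 18.1% of all genes. The count of negative estimates in ALI was 10 without ALI 1, with median-of-ratios scaling or with array weights. The median log2 fold change of the 11 was −0.58 in ALI and −0.42 in SJY, against −0.12 and −0.11 for all genes tested. Both comparisons use the same control libraries.

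Tgfbr3 encodes betaglycan, the co-receptor that presents TGF-beta2 to its receptors. Its libraries held 37.1, 67.2, 68.5, 56.2 and 52.0 FPKM in control, 18.6, 31.8, 25.7, 37.5 and 36.6 in ALI, with 26.8, 20.1, 22.0, 26.8 and 26.8 in SJY. SJY lay below all controls, and in ALI only library 4 passed the lowest control. The fall was −0.89 ± 0.19 log2 units in ALI (adjusted p = 0.00626) and −1.14 ± 0.19 in SJY (adjusted p = 0.000666). No library left out ended either call.

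Bmpr1a, a type I BMP receptor, had 11.9, 18.3, 23.0, 24.0 and 26.3 FPKM in control, 8.31, 8.63, 8.58, 15.8 and 13.9 in ALI, with 6.82, 4.83, 7.71, 8.33 and 7.26 in SJY. All SJY libraries were below all controls, and ALI 4 and 5 overlapped with control 4. The change was −0.85 ± 0.22 log2 units in ALI (adjusted p = 0.0178) and −1.41 ± 0.22 in SJY (adjusted p = 0.000392). Without control 8 the ALI call was lost (adjusted p = 0.0511). The estimate of SJY against ALI was −0.56 ± 0.22, not called (adjusted p = 0.354).

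Tgfbr2, the type II receptor that binds TGF-beta, had the lowest estimate of SJY against ALI among the 43 genes. Control libraries held 26.7, 85.6, 78.9, 76.0 and 87.0 FPKM, ALI libraries 32.3, 30.5, 32.1, 73.4 and 65.9, and SJY libraries 13.5, 18.0, 21.6, 22.9 and 24.2. SJY lay below every library of both other groups, control 4 stood far under the other controls, and ALI split into 3 low and 2 high libraries. Against control the SJY fold change was −1.69 ± 0.32 (adjusted p = 0.00152), and against ALI it was −1.10 ± 0.32 (unadjusted p = 0.0037, limma adjusted p = 0.234). With array weights the difference from ALI passed (−1.16, adjusted p = 0.0254), and without ALI 1 it did not (−1.21, adjusted p = 0.0931). ALI against control was −0.58 ± 0.32 (adjusted p = 0.208), and −0.90 (adjusted p = 0.0244) without control 4.

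Bmpr2, the type II BMP receptor mutated in heritable pulmonary hypertension, had 35.4, 60.3, 57.1, 51.5 and 61.3 FPKM in control, 15.2, 34.8, 22.9, 45.3 and 45.0 in ALI, with 32.6, 30.3, 28.3, 36.0 and 33.3 in SJY. Control 4 overlapped with both LPS groups. The change was −0.77 ± 0.25 log2 units in ALI (adjusted p = 0.0427) and −0.69 ± 0.25 in SJY (adjusted p = 0.0433). Both calls sat at the threshold, and the ALI call was lost when only ALI and control were fitted. In ALI the call was lost without any 1 of control 5, 6, 7 and 8 and ALI 1, 2 and 3 (adjusted p from 0.0553 to 0.0945), and in SJY without any 1 library other than control 4 (adjusted p from 0.0535 to 0.0968). Acvr2b, a type II activin receptor, was low: 0.830, 1.89, 1.33, 1.32 and 1.46 FPKM in control, 0.290, 1.15, 0.802, 0.637 and 1.06 in ALI, with 0.0859, 0.734, 0.555, 0.863 and 0.662 in SJY. Only the SJY comparison passed (−0.59 ± 0.18, adjusted p = 0.0231), and it was lost without control 5, control 8 or SJY 1 (adjusted p from 0.0505 to 0.0616).

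Acvrl1, encoding the endothelial type I receptor ALK1, had the highest level of the receptors and no call. Its libraries held 326, 363, 247, 249.1 and 218 FPKM in control, 45.2, 230, 157, 239 and 247 in ALI, with 238, 226, 172, 258 and 210 in SJY. ALI 1 was far below the rest. The log2 fold change in ALI was −0.80 ± 0.36 (adjusted p = 0.123), and −0.36 without ALI 1. Tgfbr1, the type I TGF-beta receptor, had group means of 14.4, 14.0 and 12.7 FPKM in control, ALI and SJY. Acvr1 (12.7, 10.0 and 10.3 FPKM), Acvr1b (20.2, 18.8 and 17.6 FPKM), Acvr2a (16.2, 13.8 and 13.3 FPKM) and Tgfbr3l (10.9, 6.95 and 8.003 FPKM) were not called in any comparison.

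**Figure D2:**
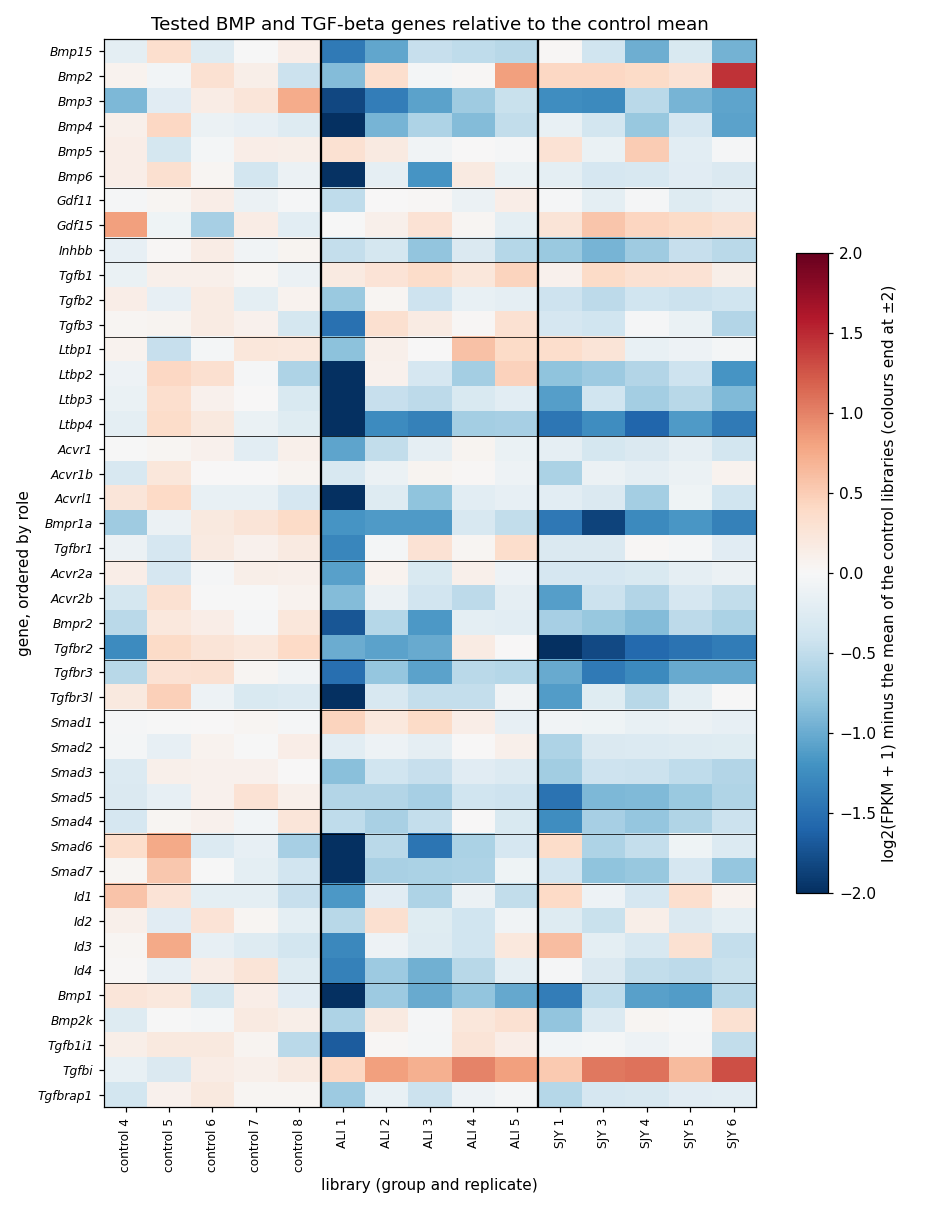
log2(FPKM + 1) of the 43 tested genes in each library minus the mean of the 5 control libraries (rows are genes ordered by role, columns libraries, blue lower and red higher, colours ending at ±2). Ltbp4, Bmpr1a, Tgfbr3 and Bmp1 are blue across the ALI and SJY libraries, Tgfbi is red across them, and ALI 1 is the bluest column.

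Among the 7 tested Smad genes, 2 fell in ALI (Smad3 and Smad5) and 4 in SJY (those and Smad2 and Smad4), where 9.56% and 18.1% of all genes tested fell. Smad5, which carries BMP signals, had 15.99, 17.6, 21.0, 24.4 and 21.3 FPKM in control, 12.9, 12.8, 12.2, 14.8 and 14.6 in ALI, with 6.48, 10.2, 10.3, 11.4 and 12.8 in SJY. Neither LPS group overlapped with control. The log2 fold change was −0.53 ± 0.16 in ALI (adjusted p = 0.0297) and −0.92 ± 0.16 in SJY (adjusted p = 0.000675). The ALI call was lost without control 6, 7 or 8, ALI 2 or ALI 3 (adjusted p from 0.0589 to 0.0841) and under median-of-ratios scaling (−0.39, adjusted p = 0.0584).

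Smad3, which carries TGF-beta and activin signals, had 11.1, 14.7, 14.5, 14.5 and 13.8 FPKM in control, 7.23, 10.1, 9.62, 11.5 and 11.1 in ALI, with 8.08, 10.0, 9.82, 9.30 and 8.76 in SJY. Only control 4 came within the ALI range, and SJY lay below all controls. The fall was −0.44 ± 0.13 in ALI (adjusted p = 0.0294) and −0.52 ± 0.13 in SJY (adjusted p = 0.00677). In ALI it lost its call without any 1 of control 5, 6, 7 and 8 and ALI 3 (adjusted p from 0.0528 to 0.0717). The ALI call was also lost when only ALI and control were fitted.

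Smad4, the partner shared by both branches, had 34.5, 44.7, 46.5, 42.1 and 51.8 FPKM in control, 30.3, 27.3, 30.9, 43.6 and 35.0 in ALI, with 17.8, 27.1, 25.2, 28.4 and 32.1 in SJY. The 5 SJY libraries were below the 5 controls (−0.74 ± 0.16, adjusted p = 0.00316). ALI was between and was not called (−0.39, adjusted p = 0.0982), but passed without ALI 4 (adjusted p = 0.0443) and with array weights (adjusted p = 0.0274). Smad2 stood at 13.9, 12.6, 15.02, 14.2 and 15.8 FPKM in control, 12.1, 13.3, 12.5, 14.4 and 15.4 in ALI, with 8.99, 11.5, 11.6, 11.8 and 11.9 in SJY. Its SJY libraries lay below all 10 others. The call against control (−0.33 ± 0.11, adjusted p = 0.0303) was lost without control 6, 7 or 8, SJY 1 or SJY 3 (adjusted p from 0.05045 to 0.0777) and under median-of-ratios scaling (−0.22, adjusted p = 0.0926), and the difference from ALI was not called (−0.26, adjusted p = 0.384). Smad1 had 18.0 ± 0.361, 21.1 ± 3.50 and 16.5 ± 0.468 FPKM in control, ALI and SJY (SD, n = 5 each). Its ALI estimate was 0.20 (adjusted p = 0.192, and 0.0442 without ALI 5). The SJY libraries of Smad1 lay below all controls, but the difference was not called (−0.11, limma adjusted p = 0.443).

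The inhibitory Smads were abundant and varied widely. Smad6 had 267, 354, 173, 187 and 132 FPKM in control, 22.3, 143, 75.6, 134 and 166 in ALI, with 270, 135, 150, 197 and 173 in SJY. The ALI estimate of −1.23 ± 0.44 did not pass (adjusted p = 0.0623), and passed only without ALI 5 (adjusted p = 0.0316) among the single libraries left out. SJY was 1.01 ± 0.44 above ALI, not called (adjusted p = 0.389), and 0.52 above it without ALI 1. Smad7 had 35.9 ± 9.498, 21.3 ± 9.37 and 22.9 ± 3.92 FPKM (SD, n = 5 each), with an ALI estimate of −0.84 (adjusted p = 0.0633, and 0.0239 without ALI 5). Smad6 and Smad7 also passed as lower in ALI when FPKM were rescaled without mitochondrial genes.

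The Id genes, which BMP signals induce through Smad1 and Smad5, were lower in ALI by their means. By the test 1 of the 4 fell, beside 9.56% of all genes. Id4 had 22.7, 19.9, 24.8, 26.8 and 18.4 FPKM in control, 8.18, 13.1, 10.9, 14.9 and 19.4 in ALI, with 22.0, 18.1, 15.5, 15.2 and 16.1 in SJY. Only ALI 5 reached the control range. The fall in ALI was −0.76 ± 0.18 (adjusted p = 0.0119), and SJY was −0.36 from control (adjusted p = 0.15). Id1, with the highest level of the 43 genes, had 819, 664, 480, 479 and 396 FPKM in control, 246, 468, 359, 508 and 391 in ALI, with 724, 513, 436, 693 and 578 in SJY. Control and SJY covered nearly one range and ALI reached lower. The estimates were −0.52 ± 0.22 for ALI (adjusted p = 0.113), 0.60 ± 0.22 for SJY against ALI (adjusted p = 0.331) and 0.08 for SJY against control (adjusted p = 0.813). Id3 had 142, 234, 123, 115 and 106 FPKM in control, 56.0, 128, 115, 105 and 161 in ALI, with 213, 121, 110, 171 and 99.1 in SJY. Id2 had 69.2, 54.9, 77.6, 66.2 and 55.8 FPKM in control, 43.5, 80.1, 53.8, 48.6 and 61.4 in ALI, with 53.4, 46.8, 69.7, 52.1 and 55.9 in SJY. The groups of Id2 and Id3 overlapped and neither gene was called.

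Of 5 tested genes that carry the family name but are neither ligand, receptor nor Smad, 2 were called. All genes tested gave 17.6% called in ALI and 32.6% in SJY. Bmp1, a metalloproteinase that trims procollagen and cleaves the BMP antagonist chordin, had 202, 199, 135, 187 and 146 FPKM in control, 22.6, 103, 85.0, 98.6 and 83.9 in ALI, with 65.2, 121, 80.3, 78.6 and 117 in SJY. Both LPS groups lay below control. The fall was −1.28 ± 0.33 in ALI (adjusted p = 0.0156), −0.89 without ALI 1 (adjusted p = 0.00335), and −0.93 ± 0.33 in SJY (adjusted p = 0.0417). In SJY the call was lost without any 1 of control 4, 5, 7 and 8 and SJY 1, 4 and 5 (adjusted p from 0.0581 to 0.101).

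Tgfbi, a secreted matrix protein named for its induction by TGF-beta, was the only gene of the 43 that rose in both comparisons. It had 27.3, 24.7, 33.7, 32.7 and 34.5 FPKM in control, 40.7, 54.6, 50.1, 61.6 and 54.5 in ALI, with 43.9, 64.2, 65.8, 47.8 and 75.7 in SJY. All 10 LPS libraries were above all controls. The rise was 0.75 ± 0.16 in ALI (adjusted p = 0.00475) and 0.92 ± 0.16 in SJY (adjusted p = 0.000688), with 0.17 between SJY and ALI (adjusted p = 0.73). The kinase gene Bmp2k, the focal adhesion gene Tgfb1i1 (Hic-5) and Tgfbrap1 were not called. Tgfbrap1 passed as lower in SJY without control 4 (adjusted p = 0.0392), when FPKM were rescaled without mitochondrial genes (adjusted p = 0.0281) and with array weights (adjusted p = 0.00287).

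The remaining 18 genes were not tested. Gdf1 was listed at 0 in all 15 libraries. Gdf2, Gdf3, Gdf5, Gdf6, Gdf7, Gdf9, Gdf10, Inhbc, Inhbe, Acvr1c and Smad9 did not reach 1 FPKM in any library. Bmp10, Bmp7, Bmp8a, Bmp8b, Inhba and Bmpr1b reached it in 1 to 4 libraries, with the highest value, 2.93 FPKM, for Bmpr1b. A value listed at 0 in a table without counts may be a failed estimate.

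Counted together, 14 of 43 genes (32.6%) passed in ALI against control at an adjusted p under 0.05, and 17.6% of all 13457 genes tested did. The median log2 fold change was −0.41 for the 43 and −0.12 for all genes. Under median-of-ratios scaling these medians were −0.31 and zero, and 12 of the 14 calls remained, all but those of Inhbb and Smad5. Groups did not overlap for 8 of the 43 (18.6%), 2 higher and 6 lower, and for 12.9% of all genes, 6.17% higher and 6.73% lower. The count of called genes was 8 without control 7 and 7 without control 8, and 12 without ALI 1. In SJY against control, which shares the control libraries, 15 of 43 (34.9%) passed and 32.6% of all genes did, so the share was near the background. Groups did not overlap for 14 of the 43 (32.6%), 1 higher and 13 lower, and for 27.7% of all genes, 11.8% higher and 15.9% lower. The medians were −0.33 and −0.11. The count was 10 in the lowest case with 1 library left out.

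In SJY against ALI limma called 0 of the 43 genes, and 0.00743% of all genes (1 gene). The smallest adjusted p was 0.234 (Tgfbr2). Array weights called 1 (Tgfbr2). At an unadjusted p under 0.05 there were 9 of the 43, Smad6, Id1 and Id4 with higher estimates in SJY and Tgfbr2, Bmpr1a, Smad1, Smad2, Smad4 and Smad5 with lower ones, where all genes gave 11.8%, 6.62% higher and 5.17% lower. The groups did not overlap for Tgfbr2 and Smad2 (4.65% of the 43), both lower, and for 3.23% of all genes, 0.988% lower. The median difference was 0.00 for the 43 and 0.03 for all genes. Neutrophil marker sums were also higher in SJY (median 9422 FPKM) than in ALI (median 4484 FPKM), and their part was not tested.

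**Figure D3:**
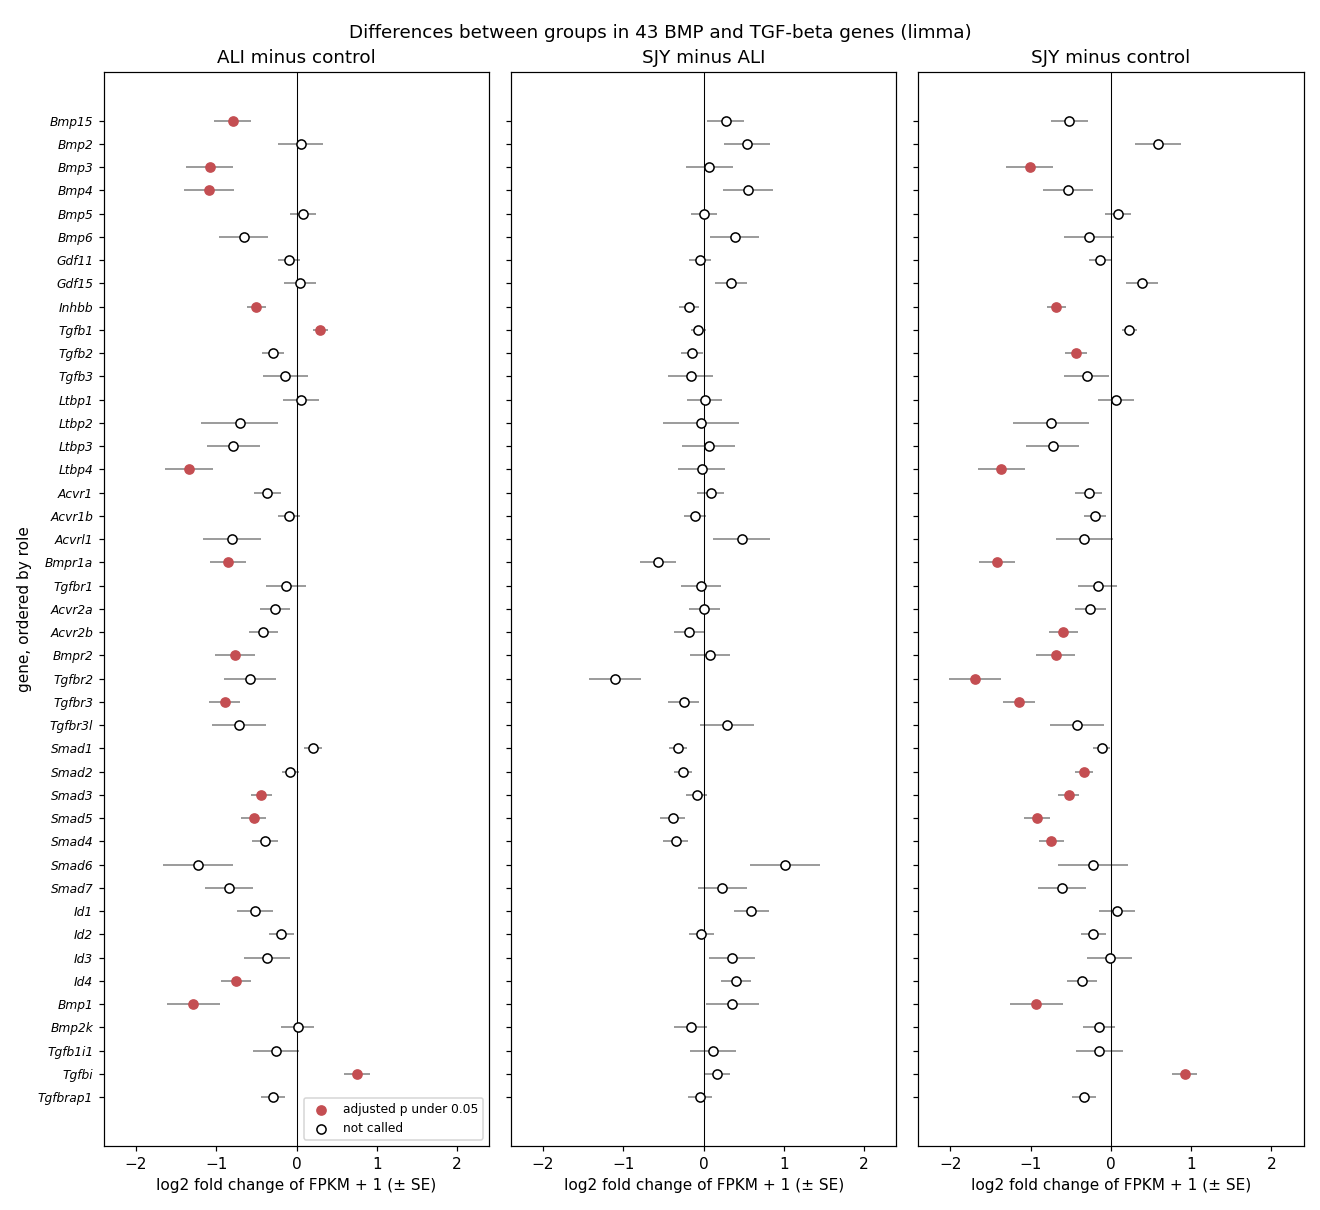
log2 fold changes of FPKM + 1 (horizontal axis, ± SE) of the 43 tested genes (vertical axis, ordered by role) for ALI minus control, SJY minus ALI and SJY minus control. Filled points passed at a limma adjusted p under 0.05: 14, 0 and 15 genes in the 3 panels.

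Beyond the family itself, 69 tested genes of 5 lists of the pathway (antagonists, latent TGF-beta activation, other ligands and co-receptors, intracellular regulators, and induced genes) were examined. In ALI 6 rose and 13 fell (27.5% of the 69 were called, against 17.6% of all genes), with a median of −0.30 against −0.12 for all genes. In SJY 7 rose and 21 fell (40.6%, against 32.6% of all genes), with a median of −0.28 against −0.11. Limma called 0 of them between SJY and ALI, where 4 had an unadjusted p under 0.05. Without ALI 1, the counts against control in ALI were 8 higher and 13 lower, and 2 genes passed as lower in SJY than in ALI, the follistatin-like gene Fstl1 (−0.72, adjusted p = 0.03625) and Col1a1 (−0.87, adjusted p = 0.0266). Of 14 antagonists and binding proteins, 2 rose and 4 fell in each comparison with control (42.9% called in each). The activin antagonist Fst rose from 7.98 ± 2.93 FPKM in control to 22.7 ± 5.36 in ALI, and to 21.7 ± 2.76 when SJY was given (SD, n = 5 each; log2 fold change 1.42, adjusted p = 0.000466, and 1.39, adjusted p = 0.000304). Decorin (Dcn), a matrix proteoglycan that binds TGF-beta and also a fibroblast marker, rose by 1.86 and 1.87 log2 units. The BMP-binding Twsg1 fell from 36.4 ± 3.15 FPKM to 18.9 ± 5.43 and 19.6 ± 4.17 (−0.96, adjusted p = 0.00339, and −0.88, adjusted p = 0.00315). Nbl1 fell in ALI (−0.95, adjusted p = 0.018, and 0.0517 without control 5), and Fmod in SJY (−1.35, adjusted p = 0.00582), and its ALI estimate passed without ALI 4 or ALI 5 (adjusted p from 0.0268 to 0.0288), under median-of-ratios scaling (−0.81, adjusted p = 0.0447), after rescaling without mitochondrial genes (adjusted p = 0.03595) and with array weights (adjusted p = 0.0204).

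Of 9 genes of latent TGF-beta activation, 1 rose and 1 fell in ALI, and 0 rose and 2 fell in SJY. That is 22.2% called in each, against 17.6% and 32.6% of all genes. The membrane protease Mmp14 rose in ALI from 21.2 ± 4.03 to 46.6 ± 8.80 FPKM (1.10, adjusted p = 0.00694), with 31.2 ± 11.1 FPKM in SJY (0.46, adjusted p = 0.158; SD, n = 5 each). In SJY it was called without SJY 1 (adjusted p = 0.00665) and under median-of-ratios scaling (0.58, adjusted p = 0.0478). Lrrc32, which tethers latent TGF-beta to the cell surface, fell in ALI (−0.83, adjusted p = 0.0246), a call lost without control 6 or ALI 3 (adjusted p from 0.0507 to 0.0581). Itgb6, the epithelial integrin subunit that activates TGF-beta, fell in SJY from 19.1 ± 5.002 to 9.43 ± 2.73 FPKM (−0.95, adjusted p = 0.00521). Its ALI value was 12.2 ± 2.35 FPKM (−0.59, adjusted p = 0.0769, and 0.02755 without control 5). Itgb1 fell in SJY by 0.46, a call lost without any 1 of control 6, 7 and 8 and SJY 1, 3, 4 and 6 (adjusted p from 0.0551 to 0.0921) and under median-of-ratios scaling (adjusted p = 0.0546).

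Of 8 other ligand and co-receptor genes, 3 fell in ALI and 4 in SJY. All genes tested gave 9.56% lower and 8.02% higher in ALI, and 18.1% lower and 14.6% higher in SJY. The BMP co-receptor Rgmb fell from 14.1 ± 3.51 FPKM to 6.45 ± 2.06 in ALI, and to 4.70 ± 0.846 when SJY was given (SD, n = 5 each; −1.03, adjusted p = 0.0035, and −1.39, adjusted p = 0.000229). Bambi, a decoy receptor, fell by 1.07 and 0.95 log2 units, and Neo1, a receptor of the Rgm proteins, by 1.09 and 1.45, with the ALI call lost without control 5, 6 or 8 (adjusted p from 0.05004 to 0.05475). Of 22 intracellular regulators, 3 fell in ALI (Nedd4l, Ctdspl and Zfyve9). Ctdspl lost its call without control 5, 6 or 7 (adjusted p from 0.0547 to 0.0685) and went from −0.96 to −0.63 without ALI 1. Zfyve9 lost its call without any 1 of control 5, 6, 7 and 8 and ALI 1, 2 and 3 (adjusted p from 0.0522 to 0.0879) and under median-of-ratios scaling (adjusted p = 0.072). In SJY 8 fell and 1 rose, with the Smad co-repressors Ski (−1.32, adjusted p = 0.00552) and Skil (−1.01, adjusted p = 0.00759) deepest and Fkbp1a, which binds type I receptors, higher (0.51, adjusted p = 0.0165). In ALI, Ski (−0.81, adjusted p = 0.0829, but 0.0367 and 0.0449 with control 4 or ALI 5 left out) and Skil (−0.42, adjusted p = 0.241) were not called.

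Of 19 genes that TGF-beta or BMP can induce, 3 rose and 2 fell in ALI and 4 rose and 4 fell in SJY. These calls were 26.3% and 42.1% of the 19, against 17.6% and 32.6% of all genes. Among the 19, the collagen genes Col1a1 (log2 fold changes 2.17 and 1.86) and Col3a1 (1.08 and 0.97) rose in both comparisons, and both are also fibroblast markers. Col3a1 lost its calls without most single libraries, 8 of 10 in ALI (adjusted p from 0.0515 to 0.0775; all but control 4 and ALI 1) and 7 of 10 in SJY (adjusted p from 0.0587 to 0.0774; all but control 4, control 6 and SJY 6). The matricellular genes Ccn2 (−2.13 and −2.07) and Ccn1 (−1.14 and −1.02) fell in both. The fibroblast marker sum, which contains Col1a1, Col3a1 and Dcn, was 371 to 479 FPKM in control, 416 to 934 in ALI and 632 to 774 in SJY, and its part was not tested.

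**Figure D4:**
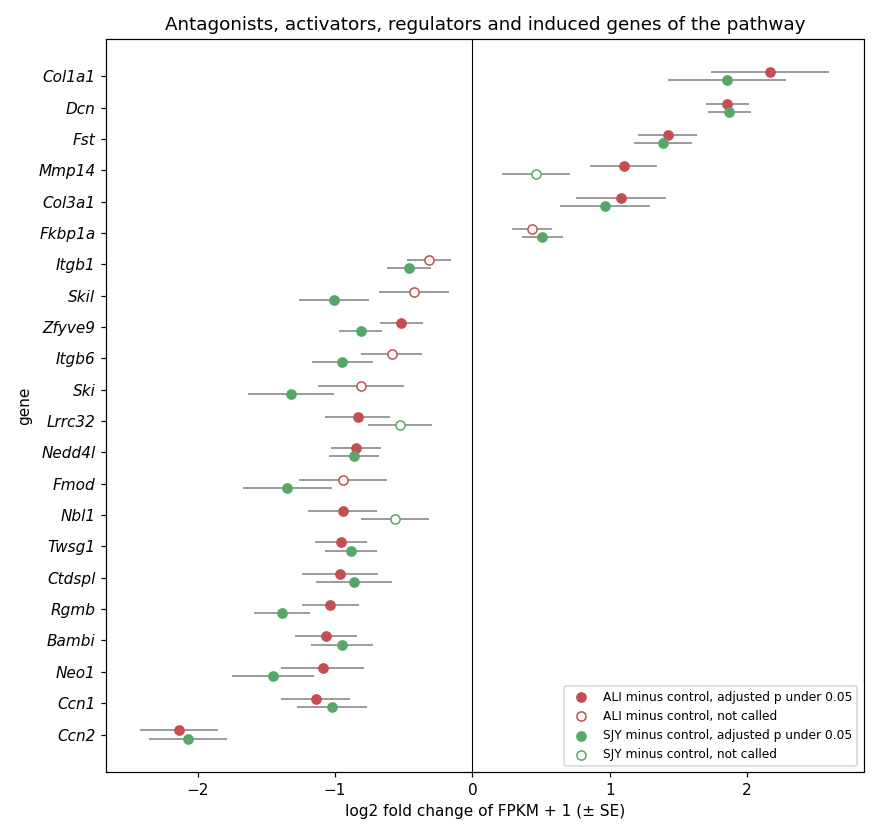
log2 fold changes of FPKM + 1 (horizontal axis, ± SE) against control for the pathway genes outside the family that the text names and that were called in at least 1 comparison (vertical axis; red ALI, green SJY, filled where the limma adjusted p was under 0.05). Col1a1, Dcn and Fst are to the right in both comparisons, and Ccn2 and Ccn1 are to the left in both.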

How the data were processed

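Total RNA of 15 rat lung samples was sequenced, per the labels' protocols after TRIzol extraction with the NEBNext Ultra kit. Per the submitters' processing notes, the tools were cutadapt, HISAT2 and StringTie and the genome build Rnor_6.0, without versions or strand setting. The authors deposited FPKM per gene, per the file headers, and all 15 library columns were used. Strand, read sharing between paralogs and overlapping genes could not be examined, so values of close relatives may share reads.

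Values were analysed as log2(FPKM + 1). Genes with an FPKM of 1 in 5 or more libraries were kept (13457). One limma model (3.58.1, R 4.3.3; trend and robust settings) held the 3 groups, with two-sided tests, Benjamini-Hochberg adjustment over all 13457 genes and calls at an adjusted p under 0.05. The test was also run on simulated data. Named genes are all genes of the family called in any comparison, the Id genes, the most abundant gene of each role without a call, and up to 3 called genes per pathway list and direction. Others were added after their values were seen. The family and the lists were chosen with earlier results of these data known. Some list genes are counted but not reported by name here. Of 180 listed symbols 5 had no match. Alternatives covered scaling, pseudocount (0.1), filter, model settings, weights, replicate numbers as a block and each library left out.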

Additional observations from a re-analysis of the deposited data

Results flagged for a closer look

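Among 129 sets of 5 libraries (43 genes in 3 groups), 12 had a library whose gap to its neighbour was large against the range of the group by Dixon's criterion. Chance gives about 1 in 20, or 6.45 here. In ALI 1 the values of Bmp1 (22.6 FPKM), Ltbp3 (2.96 FPKM), Tgfb1i1 (10.6 FPKM) and Tgfb3 (1.79 FPKM) lay below the other ALI libraries, which ran from 83.9 to 103, 14.0 to 17.5, 34.7 to 43.2 and 6.98 to 8.83 FPKM. In control 4, Tgfbr2 (26.7 FPKM, others 76.0 to 87.0) and Smad3 (11.1 FPKM, others 13.8 to 14.7) were low. In control 5 Id3 was high (234 FPKM, others 106 to 142). In control 8 Tgfb1i1 (24.2 FPKM, others 37.1 to 41.0) and Tgfb3 (5.19 FPKM, others 7.09 to 7.79) were low. In SJY 1 Smad2 was low (8.99 FPKM, others 11.5 to 11.9). In SJY 6 Bmp2 was high (6.06 FPKM, others 2.17 to 2.48) and Tgfb1i1 low (25.3 FPKM, others 33.3 to 35.1).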

How the results depend on the processing

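FPKM without read counts give no depth and no counting error, and groups of 5 limit what the tests can call. Over all alternatives, of the fold changes of the 43 genes 789 of 855 stayed on their side of the threshold in ALI against control, 854 of 855 in SJY against ALI and 776 of 855 in SJY against control. Most of these belong to genes without a call, since the main fit called 14, 0 and 15 of the 43. In ALI against control 57 values lost a call, 8 gained one and 1 was reversed. In SJY against control 35 lost a call and 44 gained one. Among estimates called without or with the replicate block, 2 changed sign under the block, Bmpr1a in ALI against control (0.0087) and the pathway gene Dab2 in SJY against control (0.41, called under the block alone). Those block estimates rest on only the 2 and 3 replicate numbers that these groups share. Of the 43 genes in ALI against control, 9 were called when only those groups were fitted, and 7 to 16 with 1 library left out (8 without control 7, 7 without control 8). The fit of only those groups lost the calls of Bmp3, Bmp4, Tgfb1, Bmpr2 and Smad3. Of the 69 pathway genes 12 were called with only those groups and 29 with array weights. Of all genes, 1332 were called with only those groups, 3959 with array weights, and 1556 to 2897 with 1 library left out (1564 without control 5, 1556 without control 7). In SJY against ALI array weights called 1 of the 43 genes, 2 of the 69 and 478 of all, and 0 to 2 of the 69 passed with 1 library left out. Of all genes 0 were called with median-of-ratios scaling, a pseudocount of 0.1, no filter, no trend or robust settings, or only those groups, 0 to 181 with 1 library left out (181 without ALI 1), and 62 without both ALI 1 and SJY 1, a choice made after seeing the data. In SJY against control array weights called 27 of the 43 genes, 46 of the 69 and 7654 of all, 23 of the 43 were called without ALI 1 and SJY 1, and 10 to 16 of the 43 and 3359 to 4690 of all with 1 library left out. Rescaling without mitochondrial genes turned the split of all genes in SJY against control from 1959 higher and 2431 lower to 1354 and 3747, and in ALI against control from 1079 and 1287 to 955 and 1728. Median-of-ratios scaling gave 2382 higher and 2295 lower in SJY, and 1473 and 1256 in ALI. The cause of these shifts was not tested.

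The labels do not say whether replicate numbers pair the samples, and the few shared numbers cannot tell. Deviations of same-numbered libraries correlated from -0.327 to 0.075 in ALI and control, from -0.389 to 0.302 in SJY and ALI, and from 0.016 to 0.202 in SJY and control. The same-numbered library was the best match of SJY 1 and SJY 5 in ALI (0.137 and 0.302) and of SJY 5 in control (0.202). For the other shared numbers the best match was a different library. With the replicate block, 0, 0 and 18 of the 43 genes, 0, 0 and 30 of the 69 pathway genes and 0, 0 and 3347 of all genes were called in the same order of comparisons. Under it 6 of the 11 receptor estimates were negative in ALI and 10 in SJY. The block fits compare only libraries that share a number, 2 pairs in ALI and control, 4 in SJY and ALI and 3 in SJY and control. With so few pairs, 0 calls under the block cannot decide whether a call of the main fit holds.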
